A study of Mus musculus with 2 samples.

Results

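Insulin-like growth factor 1 (Igf1), its receptor Igf1r and the binding proteins Igfbp2, Igfbp3, Igfbp4, Igfbp5, Igfbp6 and Igfbp7 were followed across the cell classes of mouse skin. These are 8 of the 32285 genes in the count matrix, chosen by name with earlier results of these data known, and all 8 were detected. They were read in the 8127 of 8367 cell barcodes that had at least 200 genes and at most 20% of UMIs from mitochondrial genes. A UMI is a molecular tag that marks 1 captured transcript.

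Insulin-like growth factor 1 is a secreted hormone and local growth factor, best known for carrying the growth signal of growth hormone, and in skin for its part in hair growth and wound repair. It acts through the Igf1r tyrosine kinase, which passes the signal through the IRS adaptors to PI3K and AKT. Secreted binding proteins hold the ligand away from the receptor or deliver it, and proteases such as PAPP-A and PAPP-A2 free it by cutting them.

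The cells came from skin of C57BL/6 mice aged 8 weeks, digested for an hour with Liberase and a DNAse. In one group neutrophils had been depleted at steady state over 2 consecutive days with the anti-Ly6G antibody clone 1A8, and the other group served as control. Both groups were tagged with hashtag antibodies and mixed into 1 RNA library, and the labels give neither the number of mice nor their sex. The count matrix holds 0 hashtag rows, so barcodes were not assigned to a group, every level is an average over both, and no comparison of depleted with control skin was made.

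The matrix held 83725065 UMIs. After removal of 305 called doublets (3.75% of barcodes), 7822 cells with a median of 9532 UMIs (range 507 to 58199) formed 28 clusters. Marker genes named all but 2 of them (104 cells) as 14 classes holding 7718 cells. Fibroblast-like cells were 3893 of these (50.4%), followed by 1450 macrophage-like, 618 basal keratinocyte-like, 418 suprabasal keratinocyte-like, 322 dendritic-like, 278 hair follicle keratinocyte-like, 235 monocyte-like, 160 T cell or ILC2-like, 97 skeletal muscle-like, 96 NK-like, 51 gamma-delta T cell-like, 48 pericyte or smooth muscle-like, 30 neutrophil-like and 22 mast-like cells. With 1 library there is no replicate, no test and no p-value. Levels are UMIs summed over a class and scaled to a total of 1000000 (CPM), brackets give exact 95% Poisson intervals (for ratios, exact conditional ones), and all intervals cover counting error only. No level is compared between genes.

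The group as a whole was expressed mainly by fibroblasts. Against all other named cells, 6 of the 8 members were more than 2-fold higher in fibroblast-like cells (Igf1, Igfbp3, Igfbp4, Igfbp5, Igfbp6 and Igfbp7), where 20.1% of the 15268 genes with at least 50 UMIs were. Igfbp2 was the 1 member more than 2-fold lower (24.1% of genes), and Igf1r was 1.90-fold higher (1.83 to 1.97). The median log2 ratio of the members was 2.70, against −0.14 over all genes. Macrophage-like cells had 0 of 8 members more than 2-fold higher (14.1% of genes) and 7 more than 2-fold lower (33.5%), with a median log2 ratio of −4.86 against −0.32 for all genes. Fibroblast-like cells were 50.4% of named cells, and held 43196082 of the 78506260 UMIs of all analysed cells, named or not. They held 82.0% of all Igf1 UMIs in named cells, 70.2% of Igf1r, 83.6% of Igfbp3 and 94.8% of Igfbp4. Their shares were 98.4% of Igfbp5, 98.7% of Igfbp6 and 92.8% of Igfbp7, but 28.9% of the 211 Igfbp2 UMIs.

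Transcripts freed during digestion can appear in any droplet. The summed fibroblast markers Dcn, Lum, Col1a1, Col1a2, Col3a1 and Pdgfra stood at 0.782% of their fibroblast level in basal keratinocyte-like cells, 1.05% in macrophage-like cells and 1.91% in hair follicle cells, but at 3.76% in skeletal muscle-like, 9.12% in pericyte or smooth muscle-like and 10.2% in neutrophil-like cells. A member's fibroblast level multiplied by that percentage gives the level that fibroblast RNA alone would bring, called the carry-over level from here on. In macrophage-like cells Igfbp5 (12.0 CPM) and Igfbp6 (36.6 CPM) were at 0.963 and 1.12 times that level. Whether macrophage-like cells make these messages themselves was not tested.

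**Figure D1:**
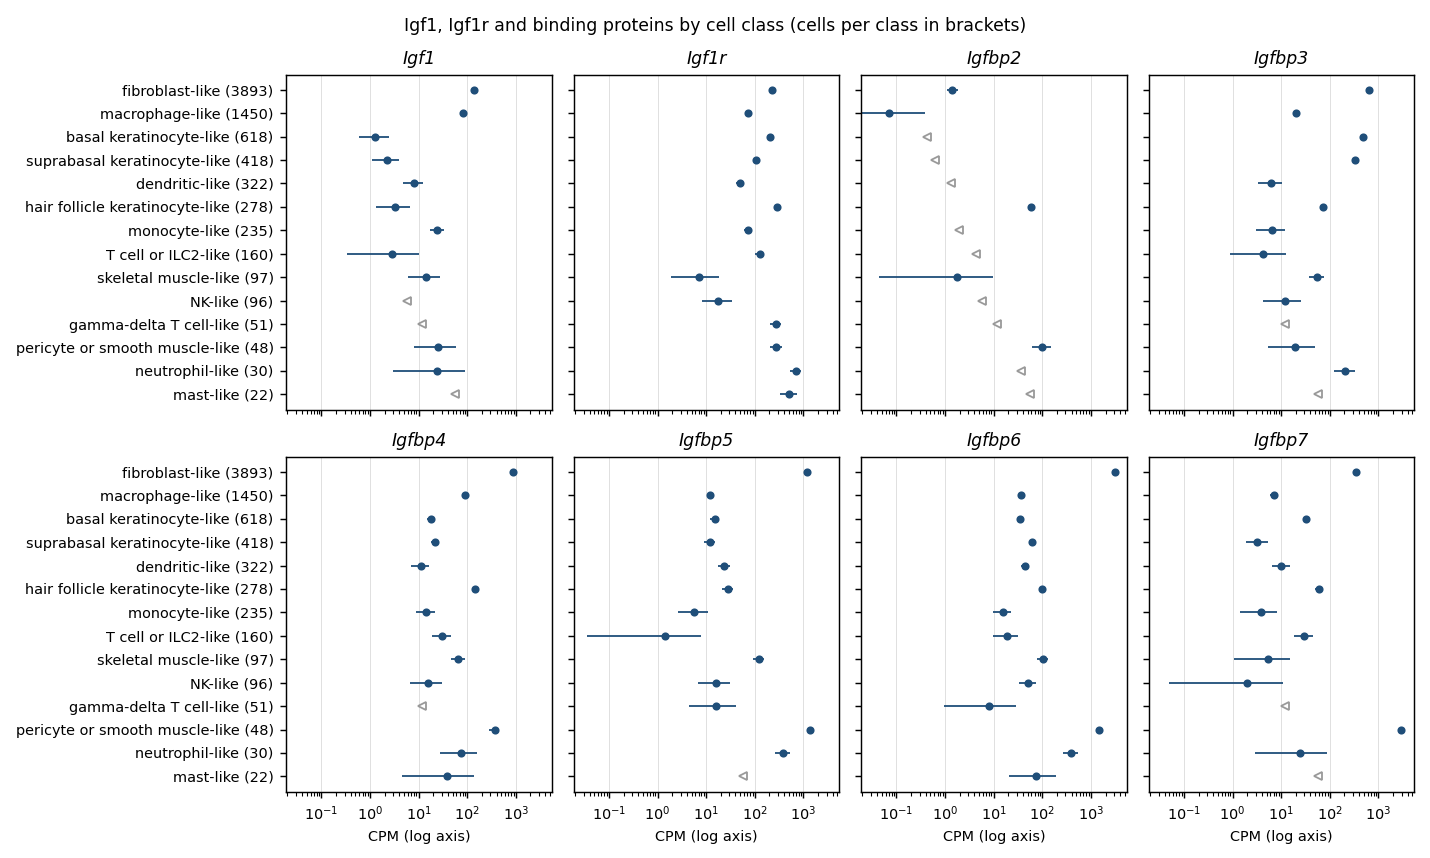
Level of each of the 8 genes (CPM, log axis) in 14 named cell classes, with the number of cells in brackets; dots are summed UMIs as CPM with exact 95% Poisson intervals, and open triangles mark the upper limit that a count of 0 allows. Igf1, Igfbp3, Igfbp4 and Igfbp6 were highest in fibroblast-like cells (Igfbp3 in basal keratinocyte-like cells once fibroblast cluster 8 is left out). Igfbp2, Igfbp5 and Igfbp7 were highest in the 48 pericyte or smooth muscle-like cells and Igf1r in the 30 neutrophil-like cells. Under some alternatives Igfbp2 was highest in keratinocyte-like classes, and Igfbp5 and Igfbp7 in fibroblast-like cells.

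Igf1, the ligand, lies on mouse chromosome 10 (chr10:87858265-87937042, plus strand, mm10 with GENCODE vM21). It was found in 2 large sources. Fibroblast-like cells had 135 CPM (131 to 138; 5827 UMIs) and macrophage-like cells 81.6 CPM (77.0 to 86.4; 1182 UMIs), a ratio of 1.65 (1.55 to 1.76). The next class was 3.32-fold below macrophages (1.42 to 10.2). It was the pericyte or smooth muscle-like class with 24.6 CPM from 5 UMIs, beside neutrophil-like cells with 24.4 CPM from 2 UMIs and monocyte-like cells with 24.3 CPM from 38 UMIs.

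Below that came a series of classes whose neighbours did not differ beyond counting error. Skeletal muscle-like cells had 14.1 CPM, dendritic-like cells 7.92, hair follicle cells 3.27, T cell or ILC2-like cells 2.83, suprabasal keratinocyte-like cells 2.24 and basal keratinocyte-like cells 1.29. Keratinocytes therefore carried almost no Igf1 message: the basal level was 1.22 times the carry-over level. No Igf1 UMI was seen in the NK-like, gamma-delta T cell-like or mast-like cells.

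The macrophage Igf1 came almost wholly from 1 population. Cluster 5, whose leading genes include Lyve1, Folr2, Cd209f, Pf4 and C1qa (Lyve1 and Folr2 are known markers of tissue-resident macrophages), held 1124 of the 1182 macrophage UMIs in 559 of the 1450 cells. Its level was 219 CPM against 6.20 CPM in the other macrophage-like cells, a 35.4-fold difference (27.2 to 46.9). Without cluster 5 the fibroblast level was 21.8 times that of macrophage-like cells. The remaining macrophage clusters were at 5.98 CPM (cluster 2) and 12.3 CPM (cluster 16). An Igf1 UMI was present in 59.4% of cluster 5 cells and 3.89% of cluster 2 cells, and in 20.4% and 0.756% after each cell was thinned to 1000 UMIs.

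Igfbp4, which binds the ligand and is known mainly as an inhibitor of its action, followed Igf1 into the same macrophages. Cluster 5 had 229 CPM of Igfbp4 (1175 of 1300 macrophage UMIs) against 13.4 CPM in the other macrophage-like cells, 17.2-fold more (14.3 to 20.8). The carry-over levels in cluster 5 were 1.74 CPM for Igf1 and 11.1 CPM for Igfbp4, far below those measured. Igfbp6 and Igfbp5, by contrast, measured 41.0 and 14.1 CPM in cluster 5 where carry-over alone gave 40.0 and 15.2. Igf1r was 2.22-fold higher in cluster 5 than in the other macrophages (1.96 to 2.51), at 110 CPM against 49.7. Of 548 thinned cluster 5 cells, 29 (5.29%) had both Igf1 and Igfbp4 where the product of their shares gives 4.33%.

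**Figure D2:**
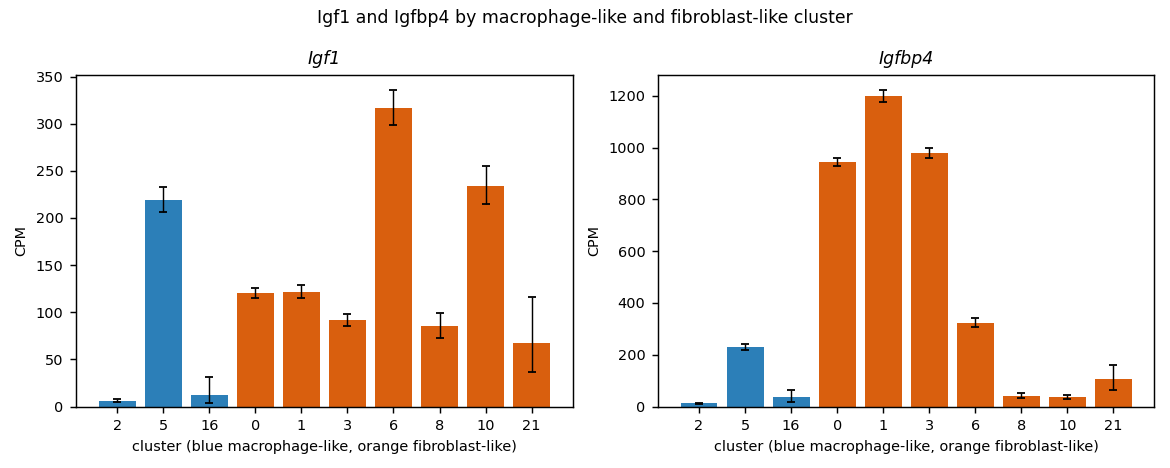
Igf1 and Igfbp4 levels (CPM, bars from 0 with exact 95% Poisson intervals) in the 3 macrophage-like clusters (blue) and the 7 fibroblast-like clusters (orange). Macrophage cluster 5 stood at 219 CPM for Igf1 and 229 CPM for Igfbp4 while clusters 2 and 16 were near the floor, and fibroblast clusters 6 and 10 were the highest for Igf1 but among the lower ones for Igfbp4.

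Fibroblast-like cells fell into 7 clusters, which were formed without the IGF genes and are given by number with leading genes. Cluster 0 (1114 cells) was led by Nkain2, Pcdh11x and Pcdh9, cluster 1 (960 cells) by Irf7, Gpx3 and Myl9, and cluster 3 (691 cells) by the chemokine genes Cxcl2 and Ccl2 with Ptx3. Cluster 6 (407 cells) was led by Hmcn2, Mgp and F3 with Cilp, Thbs4 and Myoc at 2202 CPM in sum, cluster 8 (369 cells) by Stac, Fut9 and Grid1 with the dermal papilla-associated genes Crabp1 and Dkk2, and cluster 10 (303 cells) by Zfp536, Aldh3a1 and Myo16. Cluster 21 had 49 cells, under the minimum of 50, and stays out of the spans. Cluster 8 differed from the others in more than its leading genes: its summed fibroblast markers were at 8.19% of the class average (Dcn at 412 CPM, Pdgfra at 273 CPM), its median depth was 4579 UMIs, and the nuclear RNA Malat1 stood at 47511 CPM.

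Across the 6 larger clusters all 8 members spanned more than 2-fold, as did 67.2% of 12831 genes and 58.8% of genes with at least 1000 fibroblast UMIs. The median span of the members was 4.84 on the log2 scale, against 1.41 for all genes. No fibroblast cluster was highest for more than 2 of them. Clusters 1, 6 and 8 were each highest for 25% of the members, and for 18.8%, 9.12% and 39.9% of all genes. Clusters 3 and 10 were each highest for 12.5% of the members, and for 8% and 14.9% of all genes. Cluster 0 was highest for 0 members and 9.33% of all genes. With 8 members this spread is a description only. Igfbp4 and Igfbp6 were highest in cluster 1, Igfbp5 in cluster 3, Igf1 and Igfbp7 in cluster 6, Igf1r and Igfbp3 in cluster 8 and Igfbp2 in cluster 10.

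**Figure D3:**
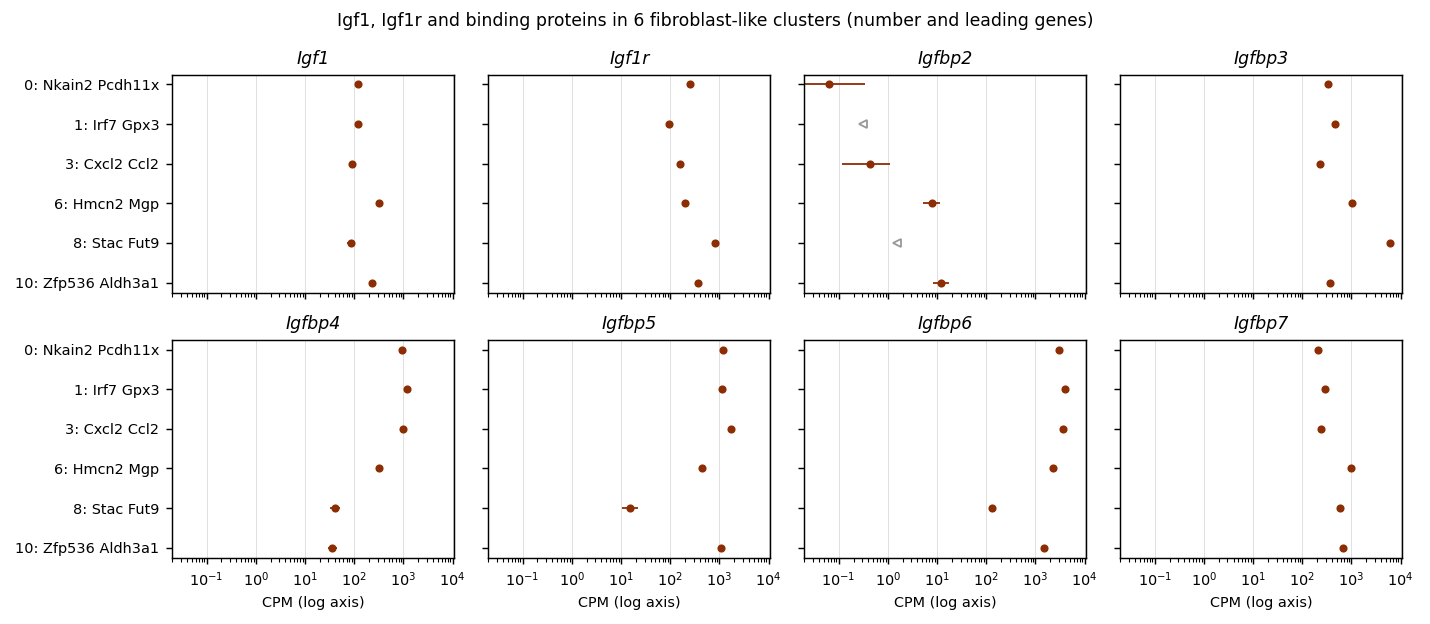
Level of each of the 8 genes (CPM, log axis) in the 6 fibroblast-like clusters of at least 50 cells, with exact 95% Poisson intervals; open triangles mark the upper limit that a count of 0 allows. Cluster 8 was highest for Igfbp3 (5944 CPM) and Igf1r (802 CPM) and lowest for Igfbp5 (15.3 CPM) and Igfbp6 (129 CPM), and clusters 8 and 10 were both low for Igfbp4.

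The fibroblast level of Igf1 was highest in clusters 6 and 10, although clusters 0 and 1 held more of its UMIs (1916 and 1189, against 1141 and 538). Cluster 6 had 316 CPM (298 to 335), 2.67 times the other fibroblast-like cells, where 4.22% of genes were more than 2-fold higher. Fibroblasts with at least 2 UMIs of Cilp, Thbs4 and Myoc, set against those with 0, had 1.87 times the Igf1 level, under 2-fold. Cluster 10 had 234 CPM (215 to 255), 1.81 times the others, and cluster 6 was 1.35-fold above it (1.22 to 1.50). Clusters 1 and 0 followed with 122 and 120 CPM, then clusters 3 and 8 with 91.6 and 85.3 CPM, which did not differ beyond counting error (cluster 8 over cluster 3, 0.931; 0.784 to 1.10). Cluster 21 gave 67.9 CPM from 13 UMIs. The highest fibroblast cluster thus exceeded macrophage cluster 5 by 1.44-fold (1.33 to 1.57).

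Igf1r, the receptor, lies on chromosome 7 (chr7:67952827-68233668, plus strand) and was the most widely spread member. Neutrophil-like cells had 707 CPM (537 to 915) from 58 UMIs in 30 cells, and mast-like cells 508 CPM (335 to 740) from 27 UMIs in 22 cells, a ratio whose interval holds 1 (1.39; 0.867 to 2.29). Both were more than 2-fold above all other named cells, where 13.4% of genes (neutrophil-like) and 16.3% (mast-like) were. Hair follicle cells followed with 290 CPM (268 to 314), then pericyte or smooth muscle-like cells with 275, gamma-delta T cell-like cells with 271, fibroblast-like cells with 227 and basal keratinocyte-like cells with 207. Without fibroblast cluster 8 the last 2 did not differ beyond counting error (0.966; 0.913 to 1.02). From hair follicle to fibroblast-like cells no neighbours differed beyond counting error.

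The remaining classes had less receptor message. T cell or ILC2-like cells had 127 CPM, suprabasal keratinocyte-like cells 108, monocyte-like cells 71.5, macrophage-like cells 71.1 and dendritic-like cells 49.7. NK-like cells had 17.7 CPM from 9 UMIs and skeletal muscle-like cells 7.04 CPM from 4 UMIs, the lowest of all. Epidermal levels varied within and beyond these classes: basal cluster 4 had 213 CPM and the cycling basal cluster 23 had 150, while the unnamed cluster 19 (68 cells, led by Abca12, Skint5 and Skint6, with basal and suprabasal keratinocyte markers) had 604 CPM (505 to 716) with Malat1 at 36382 CPM. The hair follicle clusters 13, 17 and 18 had 256, 205 and 506 CPM.

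Igf1r moved with Malat1, a long RNA that stays in the nucleus and is used as a sign of nuclear RNA content. Across the 28 clusters Spearman's rho between the 2 levels was 0.849, and with the median UMIs per cell it was −0.372. All clusters share the library, so this is a description. Cluster 8 was highest in both among fibroblasts (Igf1r 802 CPM, 763 to 843, 4.02-fold above the other fibroblast-like cells, where 21.6% of genes were more than 2-fold higher). Clusters 10, 0, 6 and 3 had 360, 258, 203 and 161 CPM of Igf1r, and cluster 21 had 606. Cluster 1 was lowest in both (95.6 CPM of Igf1r, Malat1 at 928 CPM), 8.39-fold below cluster 8 (7.73 to 9.11). The NK-like cells went the other way, with Malat1 at 10902 CPM and few Igf1r UMIs. The part of nuclear RNA content in the Igf1r differences was not tested.

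**Figure D4:**
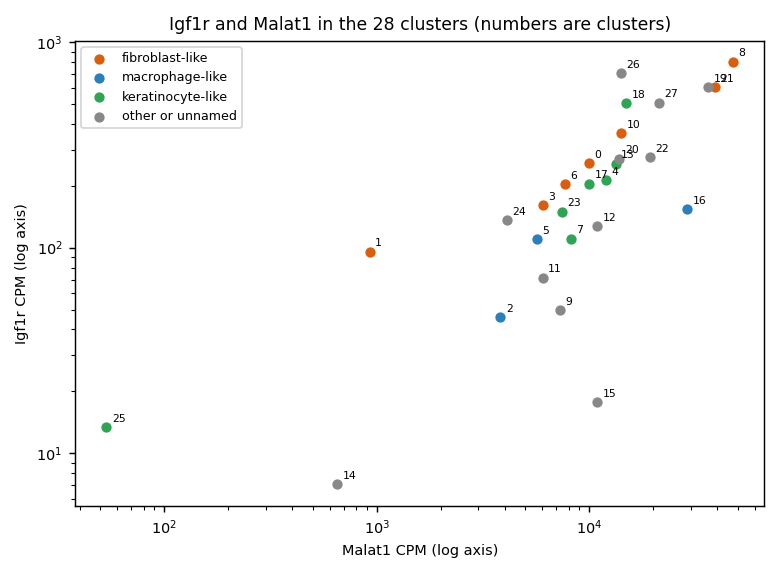
Igf1r level against Malat1 level (both CPM, log axes) in the 28 clusters, 1 point per cluster. Clusters with more Malat1 had more Igf1r (Spearman's rho 0.849), with fibroblast cluster 8 near the top right and NK-like cells (Igf1r 17.7 CPM, Malat1 10902 CPM) below the trend.

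Among the binding protein genes that differed by over 20-fold between fibroblast clusters, Igfbp3, Igfbp4 and Igfbp5 were highest in a different cluster each. Igfbp6, with a 31.2-fold span, was highest in cluster 1, as Igfbp4 was. Igfbp3 lies at chr11:7206086-7213923 (minus strand), 3539 bases from Igfbp1. Igfbp4 lies at chr11:99041244-99054392 (plus strand). Igfbp5 lies at chr1:72857932-72874884 (minus strand), 5457 bases from Igfbp2 at chr1:72824503-72852474 (plus strand). The promoter stretches of Igfbp3, Igfbp4 and Igfbp5 are shown, and that of Igfbp6 is not. They run 5′ to 3′ on the gene's strand from base −120 to −21 before the RefSeq start (RefSeq, GRCm38.p6; 8 of 8 members matched), at chr11:7213944-7214043 for Igfbp3, chr11:99041124-99041223 for Igfbp4 and chr1:72874886-72874985 for Igfbp5. Capitals mark a match, on either strand, to the TATA box TATAAA, its variant TATATA, the GC box GGGCGG or the box CCAAT.
Igfbp3: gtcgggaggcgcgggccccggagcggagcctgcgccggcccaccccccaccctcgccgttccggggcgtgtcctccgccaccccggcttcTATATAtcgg
Igfbp4: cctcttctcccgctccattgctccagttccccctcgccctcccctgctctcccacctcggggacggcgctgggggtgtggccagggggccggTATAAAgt
Igfbp5: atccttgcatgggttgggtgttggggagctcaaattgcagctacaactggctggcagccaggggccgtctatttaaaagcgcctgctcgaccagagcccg

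Igfbp3 held TATATA, found in 2.28% of 32851 promoter stretches of the same length, and Igfbp4 held TATAAA, found in 5.66%. Igfbp5 held none of the 4 motifs. Among the other members GGGCGG (22.6% of stretches) was found in Igf1r, Igfbp2 and Igfbp7, CCAAT (19.2%) in Igfbp6, and none in Igf1. Igfbp2 had a further stretch, at chr1:72825267-72825366, that held none of the 4 motifs. A match is a run of letters and not a site of action.

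Igfbp2, which binds the ligand in many tissues and is known as a secreted product of growing cells, was rare, with 221 UMIs in 46 of all 8127 barcodes. Hair follicle cells had 128 UMIs (59.9 CPM, 49.9 to 71.2), and all of them lay in cluster 17, led by Defb6, Krt79 and Sostdc1. There 23 of 88 cells (26.1%) carried it (10.2% after thinning to 1000 UMIs), and the level was 127 CPM, at least 48.2-fold above the other hair follicle cells, in which 0 UMIs were found (3 counts over the group taken as the floor). The hair follicle class was more than 2-fold above all other named cells for this 1 member, where 16.3% of genes were. Krt79 marks the upper hair follicle and the sebaceous gland opening.

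The pericyte or smooth muscle-like class gave a higher Igfbp2 level, 98.3 CPM, but its 20 UMIs lay in 3 of 48 barcodes, and the ratio to hair follicle cells had an interval that holds 1 (1.64; 0.971 to 2.64). Fibroblast-like cells had 61 UMIs in 15 cells (1.41 CPM), with 28 UMIs in 3 cells of cluster 6 and 28 in 7 cells of cluster 10. Skeletal muscle-like and macrophage-like cells had 1 UMI each, and the other 9 classes had 0. In basal keratinocyte-like cells that 0 allows at most 0.430 CPM, with 3 counts taken as the limit. Outside cluster 17, Igfbp2 was thus a message of a few cells. The order of classes depended on how cells were named: with a gate on each barcode, basal keratinocyte-like cells were highest for Igfbp2. Hair follicle cells were highest for it at Leiden resolution 0.5, with IGF genes kept in the clustering and with at most 10% mitochondrial UMIs.

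Igfbp3, the main carrier of the ligand in blood and also a local inhibitor, had fibroblasts and the epidermis as its sources. Fibroblast-like cells had 654 CPM (647 to 662; 28266 UMIs), basal keratinocyte-like cells 485 (469 to 501) and suprabasal ones 332 (316 to 348). Fibroblasts were 1.35-fold above the basal layer (1.30 to 1.40), which was 1.46-fold above the suprabasal layer (1.38 to 1.55). The first of these steps rested on 1 fibroblast cluster, number 8, with 11632 of the 28266 UMIs: without it fibroblast-like cells had 403 CPM, 0.832 times the basal level (0.802 to 0.864), and basal keratinocyte-like cells were the highest class, as they were at Leiden resolution 2. These epidermal levels were 94.7 and 44.1 times the carry-over levels. Within the basal class, cluster 4 had 528 CPM and cluster 23 had 77.9.

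Elsewhere Igfbp3 was low. Neutrophil-like cells gave 207 CPM from 17 UMIs in 3 cells, hair follicle cells 73.0, skeletal muscle-like cells 54.6, macrophage-like cells 20.1 and pericyte or smooth muscle-like cells 19.7. NK-like, monocyte-like, dendritic-like and T cell or ILC2-like cells had between 4.25 and 11.8 CPM, and gamma-delta T cell-like and mast-like cells had 0 UMIs. In the hair follicle it was seen in clusters 13 (142 CPM) and 17 (64.7 CPM) and not in cluster 18.

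Fibroblast cluster 8 had the highest Igfbp3 level of the 28 clusters. It had 5944 CPM (5836 to 6053), 14.7 times the other fibroblast-like cells (14.4 to 15.1) and 12.3 times the basal keratinocyte-like cells (11.8 to 12.7). An Igfbp3 UMI was present in 97.0% of its cells, and in 92.6% after thinning. Cluster 6 came next with 1012 CPM, then clusters 1 (471), 10 (359), 0 (340) and 3 (226), with cluster 21 at 41.8 CPM. Cells below the median depth of 10786 UMIs had more Igfbp3 than those above it (1269 against 403 CPM over all fibroblast-like cells), and within cluster 8 alone the 2 sides gave 7035 and 5434 CPM.

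Igfbp4 was a fibroblast message with a smaller signal in several other classes. Fibroblast-like cells had 865 CPM (856 to 874), 14.7 times all other named cells. Pericyte or smooth muscle-like cells had 364 CPM (286 to 457), hair follicle cells 145 (129 to 162) and macrophage-like cells 89.8 (85.0 to 94.8), each step lying beyond counting error. Neutrophil-like (73.2 CPM, 6 UMIs), skeletal muscle-like (65.1) and mast-like cells (37.7, 2 UMIs) did not differ from their neighbours, and the others had 29.7 CPM or less, down to 0 UMIs in gamma-delta T cell-like cells. In the follicle it was highest in the Igfbp2 cluster 17, with 228 CPM against 71.4 CPM in the other follicle cells (3.19; 2.47 to 4.17).

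Among fibroblasts Igfbp4 split the clusters sharply. Clusters 1, 3 and 0 had 1199, 978 and 945 CPM, and cluster 6 had 324. In clusters 1, 3 and 0 cells below the cluster's median depth had more Igfbp4 than deeper ones. The values were 1772 against 931 CPM in cluster 1, 1329 against 792 in cluster 3 and 1334 against 736 in cluster 0. The part of depth in the order of these clusters was not tested. Clusters 8 and 10 had 41.4 and 36.1 CPM, which did not differ beyond counting error (1.15; 0.833 to 1.57). The span from cluster 1 to cluster 10 was 33.2-fold (26.8 to 41.7). Cluster 10, the second highest fibroblast cluster for the ligand, was thus among the lowest for this inhibitor.

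Igfbp5, which binds to the extracellular matrix and is known from fibroblasts and muscle, was found in mesenchymal cells. Pericyte or smooth muscle-like cells had 1337 CPM (1183 to 1506; 272 UMIs) and fibroblast-like cells 1183 (1173 to 1193; 51100 UMIs), a ratio of 1.13 that did not clearly pass counting error (0.9998 to 1.27). Fibroblast-like cells were 48.8-fold above all other named cells. The next classes rested on few barcodes: the 31 UMIs of neutrophil-like cells (378 CPM) lay in 1 barcode, as did 52 of the 68 UMIs of skeletal muscle-like cells (120 CPM), 45 of the 59 in hair follicle cells (27.6 CPM) and 35 of the 54 in dendritic-like cells (23.8 CPM). All other classes had less than 20 CPM.

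Within fibroblasts Igfbp5 was lowest where Igfbp3 was highest. Cluster 3 had 1745 CPM (1719 to 1772), clusters 0, 1 and 10 had 1207, 1151 and 1078, and cluster 6 had 447. Cells below the cluster's median depth had more Igfbp5 than deeper ones in clusters 0, 1, 3 and 10, and less in clusters 6 and 8. In cluster 3 the 2 sides gave 2213 and 1497 CPM. Cluster 8 had 15.3 CPM (10.3 to 21.9) from 30 UMIs in 10 of 369 cells, about the level in basal keratinocyte-like cells (14.9 CPM). Cluster 3 was 114-fold above cluster 8 (79.7 to 169), the widest span of the 7 members with counts in every cluster. The size of this contrast rested on how the cells were chosen: fibroblasts with at least 2 UMIs of Crabp1 and Dkk2, against those with 0, had 0.483 times the Igfbp5 level in place of the 0.0124 of cluster 8 against the other fibroblasts, and 6.50 times the Igfbp3 level in place of 14.7.

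Igfbp6, which prefers IGF2 over IGF1 and lies at chr15:102144362-102149511 (plus strand), was a fibroblast message first of all. Fibroblast-like cells had 3108 CPM (3092 to 3125), 58.9 times all other named cells, and 91.3% of them carried it (77.7% after thinning). Pericyte or smooth muscle-like cells had 1460 CPM, 5.15 times the carry-over level, with 81.1% of their 297 UMIs in the 10% of cells with most. In neutrophil-like cells 27 of 32 UMIs lay in 1 barcode (390 CPM). Every other class had between 7.98 and 102 CPM. Among fibroblast clusters it was 4016 CPM in cluster 1, 3703 in cluster 3, 3031 in cluster 0, 2259 in cluster 6, 1463 in cluster 10 and 129 in cluster 8, a 31.2-fold span (27.6 to 35.4).

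Igfbp7, a distant relative that binds the ligand weakly and is known from vessel walls, lies at chr5:77349240-77408041 (minus strand) and was highest in the pericyte or smooth muscle-like class. There it had 2980 CPM (2747 to 3227; 606 UMIs), 8.78 times fibroblast-like cells (8.08 to 9.52) and 96.3 times the carry-over level, in 32 of 48 cells (66.7%). Fibroblast-like cells had 339 CPM (334 to 345). Hair follicle cells (60.3 CPM) drew it from clusters 13 and 18 (153 and 56.7 CPM) and hardly from cluster 17 (2.99 CPM), the reverse of Igfbp2 there. Basal keratinocyte-like cells had 32.8 CPM and T cell or ILC2-like cells 29.7, and suprabasal ones had 3.25.

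The pericyte or smooth muscle-like class is small and shallow, with a median of 3454 UMIs per cell. As a cluster it also met the Schwann, blood endothelial and fibroblast lists with 4 markers each, against 5 of its own list. Besides Igfbp7 it was more than 2-fold above all other cells for Igfbp2 and Igfbp5, so for 3 of 8 members, where 18.6% of all genes were. Blood endothelial cells, a usual source of Igfbp7, did not form a class: 14 cells had at least 3 of the 6 markers Pecam1, Cdh5, Kdr, Flt1, Vwf and Emcn, 7 of them inside the pericyte class, and together they gave 350 CPM of Igfbp7 from 41 UMIs. The part of endothelial RNA in the pericyte value was not tested. With at most 10% mitochondrial UMIs the class kept 18 cells, under the minimum of 20, with Igfbp7 at 4532 CPM.

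Fibroblast Igfbp7, like Igf1, was highest in cluster 6 and next in cluster 10. Cluster 6 had 975 CPM (943 to 1008), 3.46 times the other fibroblast-like cells, but 1.95 times at Leiden resolution 2 and 1.45 times where fibroblasts with at least 2 UMIs of Cilp, Thbs4 and Myoc were set against those with 0. Cluster 10 had 680, 2.12 times the others, where 7.57% of genes were more than 2-fold higher. Cluster 8 had 580, and clusters 1, 3 and 0 had 287, 241 and 211.

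Most fibroblasts carried several binding proteins at once. After thinning to 1000 UMIs (3874 cells, 19 shallower ones left out), 74.1% had a UMI of at least 2 of the 6 binding proteins and 3.74% had none. Igfbp4 and Igfbp5 were found together in 23.8% of cells, where the product of their shares gives 18.0%, a ratio of 1.32. Within clusters this ratio was between 1.09 and 1.22 in clusters 0, 1, 3 and 6, and 0.249 in cluster 10 (1 cell with both). In cluster 8 no thinned cell had both. Igfbp3 and Igfbp5 were found together in 7.77%, against a product of 12.7%, a ratio of 0.610. Within clusters that ratio was 0.575 in cluster 3, 0.739 in cluster 0, 0.911 in cluster 1 and between 1.03 and 1.08 in clusters 6, 8 and 10. In cluster 8 only 2 thinned cells had Igfbp5, so its ratio carries no information.

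Gating each fibroblast by its subset markers instead of by cluster placed 3772 of 3893 cells and put the same subsets high for Igfbp3, Igf1r and Igf1. The marker groups came from subset names given for these data and also mark the clusters, so the gate is no independent check of them. The 336 cells highest for Crabp1 and Dkk2 had 5939 CPM of Igfbp3, 802 of Igf1r, 70.0 of Igfbp4 and 34.2 of Igfbp5. The 325 cells highest for Cilp, Thbs4 and Myoc had 326 CPM of Igf1. The 1970 cells highest for Pi16, Dpp4 and Sema3c, markers of progenitor-like fibroblasts, had 1816 CPM of Igfbp5, 1208 of Igfbp4, 3831 of Igfbp6 and 192 of Igfbp7. The 984 cells highest for Cxcl13, Vegfd and Mmp3 had 516 CPM of Igfbp5. For Igfbp7 the gate turned the order of the clusters: the 46 cells highest for Cyp2f2 and C1qtnf3, genes of cluster 10, had 888 CPM (794 to 990) and the Cilp, Thbs4 and Myoc cells 646 CPM (616 to 677). Igfbp4 in the Cilp, Thbs4 and Myoc cells was 95.9 CPM, against 324 in cluster 6.

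Outside the members, 35 of 41 IGF and growth hormone pathway genes had at least 50 UMIs. In fibroblast-like cells 13 were more than 2-fold higher and 3 lower, with a median log2 ratio of 0.45, where 20.1% of all genes were higher and 24.1% lower. In macrophage-like cells 2 were higher and 16 lower, with a median of −0.83, where 14.1% of all genes were higher and 33.5% lower. In keratinocyte-like cells (basal, suprabasal and hair follicle together) 2 were higher and 14 lower, with a median of −0.79, where 14.9% of all genes were higher and 31.5% lower. Of these 3 only fibroblast-like cells had a median above 0.

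The fibroblast side of the pathway included proteases and hormone receptors. Htra1, a secreted protease that can cut binding proteins, had 609 CPM (9.63-fold above other named cells), and Ghr, the growth hormone receptor, had 510 CPM (7.20-fold). Grb10, an adaptor that restrains the receptor, had 267 CPM (53.3-fold). Pappa2, the protease that cuts Igfbp3 and Igfbp5, had 60.5 CPM (27.6-fold), and the RNA-binding protein gene Igf2bp2 had 35.8 CPM (12.3-fold). The Pappa2 level of the class rested mostly on cluster 8, with 1249 CPM there against 1.03 CPM in cluster 1.

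The pathway genes of highest level or ratio were others in macrophages and keratinocytes. In macrophage-like cells the adaptor Grb2 had 323 CPM (4.18-fold), the phosphatase Ptpn1 had 196 CPM (3.32-fold) and the kinase Akt1 had 74.9 CPM (1.51-fold). In keratinocyte-like cells the PI3K subunit Pik3cb had 149 CPM (12.2-fold), Gsk3b had 182 CPM (1.25-fold) and Ghr had 167 CPM (0.482-fold). Igfals, the subunit of the circulating ligand complex, had 2.71 CPM there (2.19-fold), and Igf2bp3 had 5.35 CPM (2.00-fold).

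Across fibroblast clusters 28 of the 35 pathway genes spanned more than 2-fold, as did 67.2% of all genes. The median span of the pathway genes was 2.01 on the log2 scale, against 1.41 for all genes. Of the pathway genes 22 (62.9%) were highest in cluster 8, where 39.9% of all genes were. The largest spans ran from cluster 8 to cluster 1, the clusters with the most and the least Malat1. Pappa2 had 1249 against 1.03 CPM (1218-fold; 661 to 2544), Pappa, the protease that cuts Igfbp4, had 172 against 0.410 (420-fold; 163 to 1550), and Grb14 had 72.6 against 0.103 (1 UMI; 708-fold, 125 to 28151). Cluster 8 thus carried the most message for Igfbp3 and for both pappalysins together. Ghr ran the other way, with 1183 CPM in cluster 10 and 84.8 in cluster 8, and Htra1 had 793 CPM in cluster 1 and 109 in cluster 8. Igf2, the other ligand, gave 67 fibroblast UMIs, and Igfbp1 and Igfbpl1 gave 0. The part of nuclear RNA content in the cluster 8 pathway levels was not tested.

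The genes most like each member across the 14 classes were found by Pearson's correlation of log2(CPM + 10) among genes with at least 500 UMIs. The 14 points share 1 library and differ in depth and size, so the values are descriptions. Igf1 was nearest to Cd302 (0.938), Rab3il1 (0.937) and Qpct (0.924). Igf1r was nearest to Mga (0.919), Atp11a (0.909) and Gcc1 (0.908), and Igfbp2 to Adgrl3 (0.958), Cacna1c (0.951) and Cd200 (0.950).

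Igfbp3 was nearest to Sema3c (0.957), Il1rl2 (0.951) and Ptges (0.927), and Igfbp4 to Mfap5 (0.910), Lama4 (0.909) and Col5a2 (0.901), which are matrix genes. Igfbp5 was nearest to Ebf1 (0.972), Galnt17 (0.969) and Snai1 (0.966), Igfbp6 to Mfap5 (0.980), Serping1 (0.971) and Rarres2 (0.962), and Igfbp7 to Cadm2 (0.966), Cyp2d22 (0.957) and Mgp (0.954). Among the members themselves Igfbp5 and Igfbp6 were most alike (0.921), then Igfbp4 and Igfbp6 (0.893). Igf1 and Igf1r had a correlation of 0.0121, so the classes richest in the ligand were not those richest in the receptor.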

How the data were processed

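Skin cells of control and anti-Ly6G-treated mice, pooled in 1 library, were measured by single-cell RNA sequencing. The deposited values are raw UMI counts per gene and barcode, made by the authors with Cell Ranger on mm10, per the submitters' processing notes (the version is not given in the sources used here). Hashtag counts were not used here.

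Barcodes with under 200 genes or over 20% mitochondrial UMIs were removed (240 barcodes). Scrublet in scanpy 1.11.5 (expected rate 6%) called doublets. The rest were normalised to 10000 UMIs, reduced to 2000 variable genes and 30 components, and clustered (Leiden, resolution 1, 15 neighbours, leidenalg 0.10.2) without 49 genes, the members and the pathway list. Clusters were named from 25 marker lists. At least 3 markers and 50% of a list had to be present in at least 10% of the cluster's cells. Each had to reach at least 2 times the median CPM over clusters. Lists that fitted were ranked by markers among the cluster's 10 leading genes, then by the share of markers met. Ties outside the lymphoid lists and shallow clusters with no marker among those genes stayed unnamed. UMIs were summed per class or cluster and given as CPM. Fibroblast clusters were led by the 5 genes of highest fold present in at least 25% of cells, of which up to 3 are printed.

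Named were all 8 members, the 3 pathway genes of highest level and of largest ratio in fibroblast-like, macrophage-like and keratinocyte-like cells (at least 20 UMIs), the 3 of largest span across fibroblast clusters, and the 3 genes most like each member. For macrophage-like cells 1 gene that this rule names is not reported here. Igf2, Igfbp1, Igfbpl1, and the cluster values of Ghr and Htra1 were named after their values were seen. Members and lists were chosen with earlier results of these data known. A ratio past 2-fold counts as a difference, and a count of 0 allows 3 counts. The summing and intervals were tested on simulated data. Alternatives were other filters, resolutions, doublets kept, IGF genes kept, equal weight per cell, gating of each barcode, subtraction of free fibroblast RNA and removal of cells with fibroblast markers from other classes. Chosen after seeing the data were leaving out the pericyte class, macrophage cluster 5 or fibroblast cluster 8, and the comparisons of marked clusters under each setting.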

Additional observations from a re-analysis of the deposited data

How the results depend on the processing

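The number of members highest in fibroblast-like cells was 4, and between 3 (Leiden resolution 2, and without fibroblast cluster 8, basal keratinocyte-like cells then being highest for Igfbp3) and 6 under the alternatives. It was 6 with at most 10% mitochondrial UMIs, with a gate on each barcode and without the pericyte or smooth muscle-like class, because the pericyte class was then left out or fell to 18 and 15 cells, under the minimum of 20. Its Igfbp7 level was 4532 and 3773 CPM in those cells. Igfbp5 was also highest in fibroblast-like cells with doublets kept, at Leiden resolution 0.5, with IGF genes kept and with every cell weighing the same. The pericyte class held between 48 and 99 cells in those settings. The 6 members more than 2-fold higher in fibroblast-like cells, the 0 in macrophage-like cells and the 8 spanning 2-fold across fibroblast clusters did not change in number under any alternative run. The Igf1 ratio of fibroblast-like over macrophage-like cells (1.65) was 1.29 with every cell weighing the same, 1.44 with a gate on each barcode and 21.8 without macrophage cluster 5. Of 220 ratios under alternatives 121 stayed within counting error of the reported ratio and 99 moved beyond it. 5 crossed the 2-fold threshold, and 1 crossed 1: Igf1 in macrophage-like over all other cells was 0.874, and 1.21 with every cell weighing the same. The ratio of fibroblast-like over all other cells ranged from 24.5 to 109 for Igfbp5, from 24.6 to 184 for Igfbp6 and from 2.53 (without fibroblast cluster 8) to 7.82 (every cell weighing the same) for Igfbp3, and for Igfbp2 from 0.169 to 0.538 (every cell weighing the same, no longer 2-fold lower). The Igf1 ratio of cluster 5 over other macrophages ranged from 12.7 (resolution 0.5) to 45.8 (doublets kept). Igfbp7 in the pericyte or smooth muscle-like class fell to 1547 CPM with doublets kept, where the class held 99 cells. No paired analysis was possible because the 1 pooled library has no replicate. Classes of 22 to 51 cells limit every value in them to few UMIs.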
